A study of Mus musculus with 7 samples.

Results

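Interferon-stimulated genes were followed in single cells of mouse atypical teratoid rhabdoid tumours (ATRT), brain tumours driven by loss of Smarcb1, which encodes a core SWI/SNF subunit. The set is a fixed list of 39 gene symbols, drawn up with earlier results of these data known, out of 19415 genes listed in any library. At least 1 file lists 38 of them and every file lists 35. Mx2 was in no file, and the GENCODE annotation marks its locus as a polymorphic pseudogene. All mice carried Rosa26-creERT2 and Smarcb1 fl/fl, so that a tamoxifen-inducible Cre under a ubiquitous promoter could delete Smarcb1. Tamoxifen (50 mg/kg) was given once to the pregnant female at day 6.5 post coitum, and there was no untreated or Cre-negative group. By their labels, 5 libraries are MYC tumours and 2 are SHH tumours. MYC replicate 1 (12 weeks old) and MYC replicate 5 (27 weeks) came from the basal cerebrum. MYC replicate 2 (trigeminal nerve) and MYC replicate 3 (lateral cerebellum), both from mice of 19 weeks, share a number in their titles and were summed as 1 animal. MYC replicate 4 (21 weeks) came from the trigeminal nerve. SHH replicates 1 and 2 (14 and 16 weeks) both came from the striatum and subventricular zone, so subgroup and tumour site cannot be told apart. The MYC animals are numbered 1 to 4 below, animal 2 being replicates 2 and 3, animal 3 replicate 4 and animal 4 replicate 5.

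Interferons are secreted cytokines that warn neighbouring cells of infection or damage. Type I interferons bind the receptor chains Ifnar1 and Ifnar2, the kinases Jak1 and Tyk2 are activated, and a complex that holds Stat2 and Irf9 binds the interferon-stimulated response element (ISRE) in target promoters. Interferon gamma signals through Ifngr1 and Ifngr2, and many of its target promoters hold the gamma-activated site (GAS). The resulting proteins block viral entry, translation and release, tag proteins with ISG15, or amplify the response; in the brain, microglia and infiltrating macrophages are well known to mount it.

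The DNA element through which many of these genes are switched on is shown first, although the search below found it in only part of the members. RefSeq promoter windows of GRCm38.p6 (300 bases, from 250 before to 50 after the gene start) were found for 30 of the 39 members. The ISRE core, spelled as GAAA, any 2 bases and GAAA and searched on both strands, was in the windows of 13 of these 30 (43.3%), against 3.99% of 27025 genes with a window. The GAS core, TTCNNNGAA, was in 7 of 30 (23.3%), against 9.55% of all genes; the 2 spellings can overlap. A match describes the letters only. The 150 bases before the start of 4 members are given on the gene's strand, with each ISRE match in capitals (TTTC, any 2 bases and TTTC is the same core on the other strand). They lie at chr4:156200819-156200968 (minus strand) for Isg15, chr19:34640739-34640888 (plus) for Ifit1, chr19:34583379-34583528 (plus) for Ifit3 and chr8:71537473-71537622 (minus) for Bst2.
Isg15: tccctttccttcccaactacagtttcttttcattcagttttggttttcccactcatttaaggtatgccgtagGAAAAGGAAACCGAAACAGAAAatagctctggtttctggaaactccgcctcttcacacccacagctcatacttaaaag
Ifit1: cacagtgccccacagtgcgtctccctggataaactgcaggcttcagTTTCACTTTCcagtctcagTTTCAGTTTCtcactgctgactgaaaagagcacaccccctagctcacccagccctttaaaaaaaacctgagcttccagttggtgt
Ifit3: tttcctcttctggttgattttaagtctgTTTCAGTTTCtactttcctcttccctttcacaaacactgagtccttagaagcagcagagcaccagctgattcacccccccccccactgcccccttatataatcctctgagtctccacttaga
Bst2: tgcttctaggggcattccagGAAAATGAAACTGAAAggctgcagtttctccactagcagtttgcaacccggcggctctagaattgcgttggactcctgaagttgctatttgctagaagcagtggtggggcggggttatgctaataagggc
Isg15 holds 3 overlapping matches, the first beginning 78 bases before the start, Ifit1 holds 2 separate ones and Bst2 2 overlapping ones. These 4 members were among those that were higher in MYC tumour cells, as given below, and Irf7, Oasl2, Lgals3bp, Xaf1 and Ifi47, which were higher too, had no ISRE match in their windows.

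Cells were classed by raw marker counts of unique molecular identifiers (UMIs, each standing for 1 captured transcript molecule), using no interferon-stimulated gene. Of 24433 barcodes, 23938 were kept, and libraries held 2150925 to 111985990 UMIs; MYC replicate 5 alone had 62.5% of all barcodes, and 220 barcode sequences were shared between pairs of libraries. Tumour-candidate cells, which lack Ptprc and other class markers, numbered 84 to 7823 per library. Their own subgroup's tumour genes summed to 1395 to 4617 CPM (UMIs per 1000000 UMIs of the cell class). The 12 macrophage markers summed to 9.97 to 351 CPM, a level that the gate itself capped. Macrophage genes outside the gate, such as Lyz2 and Ctss, summed to 61.2 to 302 CPM, which was 0.220% to 2.46% of their level in macrophage/microglia-like cells. Smarcb1 in tumour-candidate cells was at 1.20 to 9.06 CPM except in MYC replicate 2, at 28.5. In macrophage/microglia-like cells it was at 24.9 to 49.8. The value of MYC replicate 2 lay within the macrophage range, and the count without its animal is given beside the main result. Neutrophil markers were at 974 CPM in its tumour-candidate cells, and 49.4% of its kept barcodes were classed as neutrophils. The gate held no list for fibroblasts or Schwann cells. The part of such cells in its Smarcb1 value was not tested. Which exons the floxed allele loses is not given in the sources used here, so a 3' count of Smarcb1 may not read the deletion. In MYC replicate 5 the tumour genes reached 42.5% of their tumour level in macrophage/microglia-like cells and 38.9% in T-cell-like cells, against at most 8.77% in the other libraries.

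The summed level of the members separated the tumour cells of the subgroups by more than it separated their immune cells. In tumour-candidate cells it was 10880, 5491, 8820 and 17140 CPM in MYC animals 1 to 4 and 760.6 and 522.3 in the SHH animals. The means were 10580 ± 4903 (SD, n = 4) and 641.5 ± 168.5 (SD, n = 2), a 16.5-fold ratio, and the groups did not overlap. In macrophage/microglia-like cells the level was 13600, 2349, 7127 and 14760 in MYC and 2837 and 3104 in SHH animals, a 3.19-fold ratio of means with MYC animal 2 below both SHH animals. In T-cell-like cells it was 8068, 2995, 5836 and 13830 against 3166 and 3528, a 2.30-fold ratio, again with animal 2 lowest of all. Within an animal, the tumour level was 2.34, 1.24 and 1.16 times the macrophage level in MYC animals 2, 3 and 4, and the macrophage level was 1.25 times the tumour level in MYC animal 1. These MYC ratios depend on the 3 most abundant members, as given below. In MYC animal 4 the tumour genes reached 42.5% and 38.9% of their tumour level in macrophage/microglia-like and T-cell-like cells. With immune cells holding tumour-gene UMIs left out, its levels in these 2 classes were 14080 and 12720. The part of tumour RNA in the immune levels of this animal was not tested. In the SHH animals the tumour level was 0.268 and 0.168 times the macrophage level. In the 2 basal cerebral MYC tumours the tumour level was 10880 and 17140, in the 2 trigeminal libraries 5221 and 8820, and in the lateral cerebellar library 5663. The libraries sequenced in 1 run gave 5221 to 10880 for MYC and 522.3 for SHH, and those with a second run, MYC replicate 5 and SHH replicate 1, gave 17140 and 760.6.

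**Figure D1:**
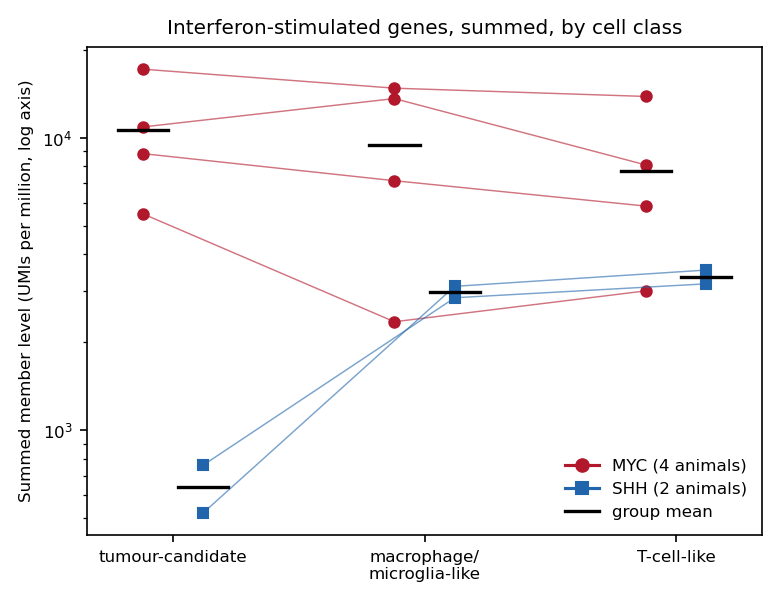
Summed level of the interferon-stimulated genes in CPM (log axis) for 3 cell classes; points are animals (4 MYC circles, 2 SHH squares), thin lines join classes of 1 animal and black bars are group means. The SHH tumour-candidate points, at 522.3 and 760.6, lie below all others, while immune cells of the subgroups overlap.

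Ifi27l2a, a small mitochondrial and membrane-associated interferon-induced protein gene, was the highest member in every library and class. It took 45.7% to 65.4% of the members' UMIs in tumour-candidate cells. Ifi27l2a, Bst2 and Isg15 together took 68.3% to 81.2% of them. Without these 3, the members still summed to 1260 to 3949 CPM in MYC tumour-candidate libraries and to 180.4 and 146.3 in the SHH libraries. By library the MYC tumour sums were then 2903, 1260, 1795, 1661 and 3949 in replicates 1 to 5. The macrophage/microglia-like sums were 7705, 1267, 1103, 2677 and 4702, and 1392 and 1495 in SHH. So without these 3 the tumour sum exceeded the macrophage sum in MYC replicate 3 only. Levels of different genes are set side by side here as CPM because the 3' end chemistry counts a molecule once whatever its length. Differences between genes in capture or mapping were not tested.

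Member by member, tumour-candidate cells of MYC animals were higher. Of 37 members tested, 24 passed the edgeR quasi-likelihood test (adjusted p under 0.05 over 11294 genes) as higher in MYC and 0 as lower, where 2.7% of all tested genes were called higher and 2.96% lower. All 37 log2 fold changes were positive, with a median of 4.23 against 0.02 over all genes tested. In 34 of the 37 the 4 MYC values lay above both SHH values, against 12.7% of all genes. DESeq2 called 35, where it called 1148 of 11294 genes higher and 729 lower. The edgeR count was 31 without MYC animal 2, whose replicate 2 had the highest Smarcb1 level in tumour-candidate cells. There 435 of 11180 genes were called higher and 556 lower. Without MYC animals 1, 3 and 4 the edgeR count was 17 of 35, 17 of 37 and 16 of 35 members tested. Of all genes, 254 of 10624, 254 of 11371 and 171 of 10750 were then called higher, and 250, 247 and 141 lower. With either SHH animal left out 1 SHH animal remained, and the median log2 fold changes of the members were 4.42 and 4.21.

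**Figure D2:**
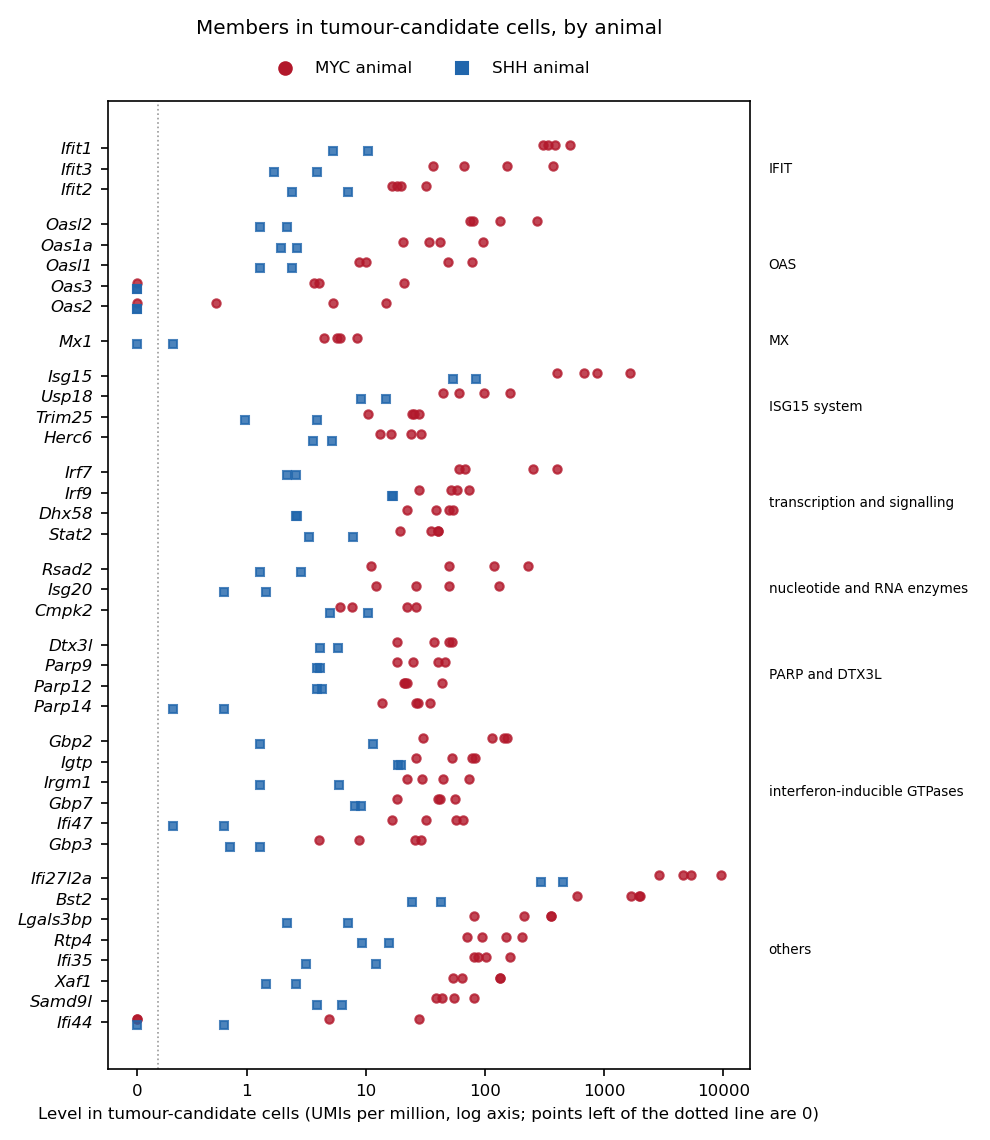
Level of each member with any UMI in tumour-candidate cells, in CPM (log axis, zeros set apart at the left), by animal and role. MYC circles lie to the right of SHH squares except for Cmpk2, Ifi44, Oas2 and Oas3, whose values overlap or tie at 0.

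The IFIT proteins bind viral RNA that lacks host cap marks. Ifit1 was at 339.8, 307.7, 383 and 516 CPM in the MYC animals and 10.4 and 5.30 in the SHH animals, the groups being far apart (log2 fold change 5.92 ± 0.55 SE, adjusted p = 0.0067). Ifit3 was at 152, 36.5, 66.5 and 369 against 3.88 and 1.69 (6.22 ± 1.35, adjusted p = 0.049); its MYC values spread over 10-fold. Ifit2 had 21.8 ± 7.11 (SD, n = 4) against 4.76 ± 3.33 (SD, n = 2) and did not pass (adjusted p = 0.061). So 2 of 3 IFIT members passed, and in all 3 the MYC values lay above both SHH values.

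Of the OAS family, best known for enzymes that make the 2'-5' oligoadenylates that activate RNase L, 2 of 4 tested members passed as higher. Oasl2 was at 133, 79.6, 74.6 and 275 in MYC and 1.29 and 2.17 in SHH animals (log2 fold change 6.54 ± 0.94 SE, adjusted p = 0.018). Oas1a was at 95.6, 20.4, 42.3 and 34.0 against 1.94 and 2.65 (4.58 ± 0.82, adjusted p = 0.030). Oas2 was at 5.31, 0.553, 0 and 14.7 CPM and Oas3 at 3.68, 0, 4.03 and 21.0 in the MYC animals, and both had 0 UMIs in the SHH sums, together 5700794 UMIs, where 3 counts would be 0.526 CPM. Animal 4 was highest for both, and 1 MYC animal was at 0 for each. Oas2 did not pass and Oas3 was filtered out before the test. Oasl1 had means of 36.4 and 1.85 (log2 fold change 4.54) and did not pass. Its lowest MYC value, 8.84, lay above its highest SHH value, 2.41. Mx1, a dynamin-like GTPase that traps viral nucleocapsids, was low throughout, at 5.72, 4.42, 6.05 and 8.44 against 1 UMI in both SHH sums, a ratio of 35.1 (exact Poisson 95% interval 6.30 to 1386, counting error only).

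The ubiquitin-like modifier Isg15 had 674, 403, 865 and 1658 CPM in MYC and 84.1 and 54.4 in SHH animals. It was the second or the third most abundant member in the tumour cells of each animal, and its groups did not overlap (log2 fold change 3.98 ± 0.74 SE, adjusted p = 0.033). Herc6, the ligase that attaches Isg15 in mice, and Trim25, a ligase acting on the RNA sensor RIG-I, rose with log2 fold changes of 2.55 and 3.59. Usp18, which removes Isg15 and dampens receptor signalling, had means of 91.6 and 12.0 and narrowly missed the threshold (adjusted p = 0.051).

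Irf7, the transcription factor that amplifies type I interferon production, was at 253, 67.4, 60.5 and 402 in MYC and 2.59 and 2.17 in SHH animals (log2 fold change 6.67 ± 1.24 SE, adjusted p = 0.033). The cytosolic RNA sensor Dhx58 (4.23) and Stat2 (2.92), which acts together with Irf9, rose as well. Irf9 had means of 52.8 ± 18.8 (SD, n = 4) and 16.7 ± 0.147 (SD, n = 2) and did not pass (adjusted p = 0.068). The members of this signalling group thus ranged from 1.92 to 6.67 in log2 fold change.

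None of the 3 nucleotide and RNA enzymes passed, although the median of their log2 fold changes was 5.79. Rsad2 (viperin), which makes a chain-terminating nucleotide, was at 118, 11.1, 50.4 and 228 against 1.29 and 2.89, and the exonuclease Isg20 at 49.8, 12.2, 26.2 and 130.5 against 0.647 and 1.44. Their MYC values spread more than 10-fold and both adjusted p-values were above the threshold (0.069 and 0.056). Cmpk2, a mitochondrial nucleotide kinase that adjoins Rsad2 in the genome, was at 26.6, 7.74, 6.05 and 22.2 against 10.4 and 5.06, so its groups overlapped (log2 fold change 1.39 ± 0.76 SE, adjusted p = 0.30).

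All 4 PARP and Dtx3l members rose, with log2 fold changes of 2.95 to 6.28. Dtx3l, the ubiquitin ligase that pairs with Parp9, was at 37.6, 18.2, 50.4 and 52.6 in MYC and 5.82 and 4.09 in SHH animals. Parp14, an ADP-ribosyltransferase, had 27.4, 13.8, 34.3 and 26.3 against 2 UMIs in both SHH sums, a ratio of 72.5 (exact Poisson 95% interval 20.1 to 598).

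Among the interferon-inducible GTPases, some of which coat and break open the vacuoles of intracellular parasites, 2 of 6 passed as higher. In all 6 the MYC values lay above both SHH values. Ifi47 was at 57.2, 16.6, 32.3 and 65.7 in MYC animals against 2 UMIs in both SHH sums, a ratio of 122 (exact Poisson 95% interval 33.9 to 1011). Gbp7 had means of 39.1 and 8.62 (log2 fold change 2.47, adjusted p = 0.049). Gbp2 was the most abundant of the group, at 146, 154, 30.2 and 115 against 1.29 and 11.6; its groups did not overlap, but it missed the threshold (adjusted p = 0.065), as did Gbp3, Irgm1 and Igtp.

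Of the other 8 members, 7 rose and Ifi44, seen in 2 of 4 MYC animals, did not pass. Ifi27l2a was at 5353, 2908, 4604 and 9545 in MYC and 453 and 297 in SHH animals (log2 fold change 4.17 ± 0.65 SE, adjusted p = 0.022). Bst2 (tetherin), which holds budding virions on the cell surface, was at 1947, 593, 1691 and 1990 against 42.7 and 24.6 (5.80 ± 0.75, adjusted p = 0.014). The lowest MYC value of Bst2 was above 10 times the highest SHH value. Lgals3bp, a secreted galectin-binding glycoprotein, was at 357, 213, 80.6 and 358 against 7.12 and 2.17 (6.13 ± 0.99, adjusted p = 0.024). Xaf1, a pro-apoptotic zinc-finger protein, Ifi35, Rtp4 and Samd9l rose with log2 fold changes of 3.60 to 5.94.

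In macrophage/microglia-like cells 0 of 38 members tested passed in the comparison of MYC with SHH, where 0.156% of 7668 genes were called in either direction by edgeR. DESeq2 called 5 members, where it called 233 of 7668 genes higher and 127 lower. In the edgeR test 19 members had an unadjusted p under 0.05, as did 973 of the 7668 genes. The log2 fold changes were positive for 37 of 38 with a median of 1.45 against 0.04 over all genes, and 9 members had all MYC values above both SHH values, against 13.5% of all genes called so. Isg15 was at 1916, 92.4, 860.5 and 1483 in MYC and 166 and 142 in SHH macrophage/microglia-like cells, so MYC animal 2, with 37 such cells, lay below both. Without that animal 2 members passed, where 37 of 7829 genes were called higher and 35 lower. The median log2 fold change of the members was then 1.73. Lgals3bp had a log2 fold change near 0, which turned positive without MYC animal 2, at 424, 252, 235 and 549 against 391 and 270.5 (-0.06 ± 0.45 SE). In T-cell-like cells 0 of 36 passed by edgeR (0.0444% of 6761 genes were called) and 0 by DESeq2, which called 24 genes higher and 7 lower. By edgeR 10 members had an unadjusted p under 0.05, as did 287 of the 6761 genes. The median log2 fold change of the members was 1.02, and 6 of 36 members had all MYC values above both SHH values, against 4.17% of all genes.

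The macrophages of the same animals set the scale for the tumour cells. In the SHH animals 33 of 38 members were lower in tumour-candidate than in macrophage/microglia-like cells by edgeR with the animal as block, and 0 were higher, where 16.5% of 11881 genes were called lower and 13% higher. In the MYC animals 9 of 38 were lower and 0 higher, where 11.6% of genes were called lower and 5.85% higher. The median log2 differences of the members were -3.73 in SHH and -0.81 in MYC. These subgroup contrasts were added after the data were seen. The MYC count was 0 without MYC animal 1, where 228 of 11587 genes were called higher and 953 lower. There 12 members had an unadjusted p under 0.05, as did 3372 of all genes tested. Without MYC animal 3 the MYC count was 2, where 320 of 12126 genes were called higher and 1076 lower. It was 17, of which 15 lower, when immune cells holding tumour-gene UMIs were left out. In that setting 2509 of 11957 genes were called higher and 1585 lower. With SHH animal 1 or 2 left out 1 SHH animal remained, and the median log2 differences of the members in SHH were -3.98 and -3.76. Without the block, 23 members were lower in the SHH animals, where 478 of 11881 genes were called higher and 1396 lower. In the MYC animals 1 member was lower without the block, where 309 genes were called higher and 1054 lower. Averaged over all 6 animals, 17 were lower and 0 higher, against 15.1% of genes called lower and 17.2% higher. This count was 5 without MYC animal 1 and 10 without MYC animal 3, where 1402 of 11587 and 1477 of 12126 genes were called lower. It was 5 and 7 without SHH animal 1 or 2, where 1263 of 11031 and 1347 of 11371 genes were called lower. Without the block it was 2, where 1184 of 8872 genes were called lower.

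**Figure D3:**
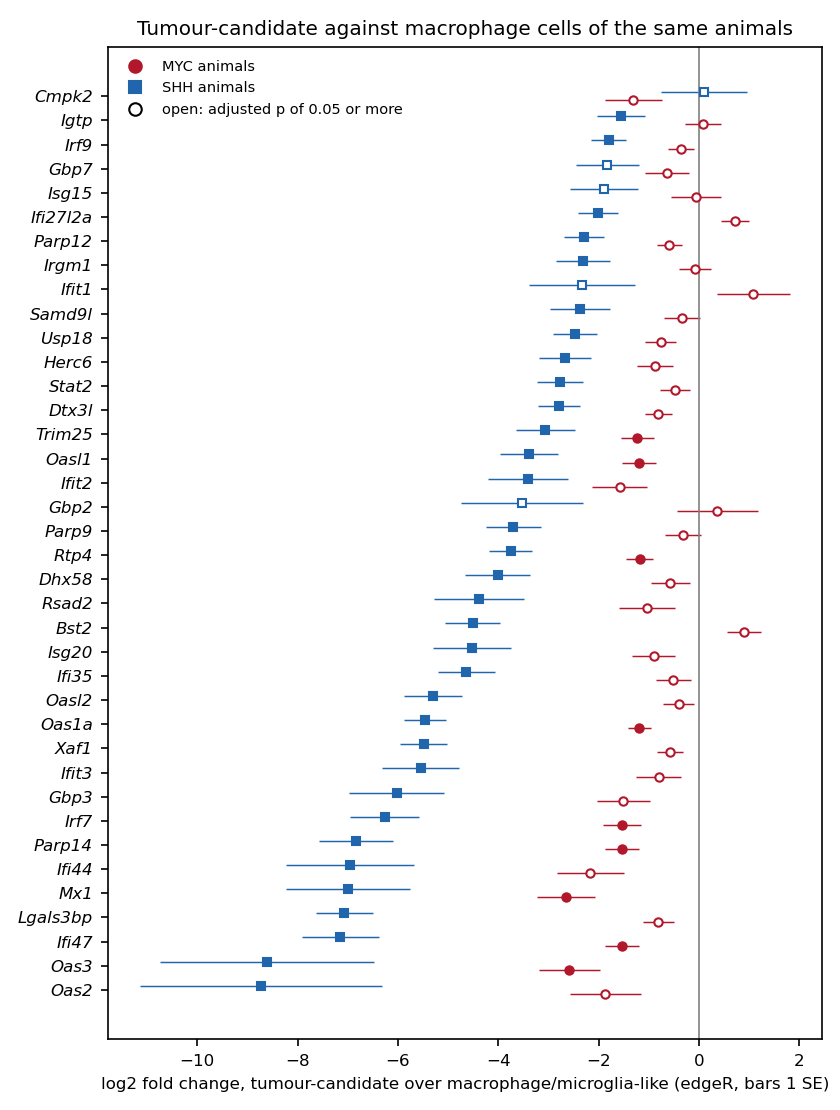
Log2 fold change of each member in tumour-candidate over macrophage/microglia-like cells of the same animals, with 1 SE, for MYC (circles) and SHH animals (squares); filled symbols passed at an adjusted p under 0.05. The SHH values run from 0.09 for Cmpk2 down to -8.73 for Oas2, and the MYC values lie to their right for every other member.

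The difference between those contrasts was tested directly, and 13 of 38 members passed, all with tumour cells higher relative to macrophages in MYC than in SHH animals; 2.13% of 11881 genes were called in that direction and 0.295% in the other. The largest was Lgals3bp, whose macrophage levels overlapped between the subgroups and whose tumour levels did not: 357, 213, 80.6 and 358 in MYC and 7.12 and 2.17 in SHH tumour cells, a difference of 6.25 ± 0.61 SE on the log2 scale (adjusted p = 0.0054). Oas1a, with a smaller difference, had 212, 64.0, 75.2 and 51.2 in MYC and 59.6 and 68.1 in SHH macrophages (4.28 ± 0.47, adjusted p = 0.0061). Bst2 was higher in the tumour cells than in the macrophages of all 4 MYC animals and lower in both SHH animals: its macrophage levels were 1135, 153, 628 and 1697 in MYC and 340.5 and 590.3 in SHH (5.41 ± 0.64, adjusted p = 0.0070). Xaf1, Oasl2, Ifi47, Ifi35 and Irf7 differed by 4.12 to 5.61, and Parp14, Ifi27l2a, Ifit3, Rtp4 and Parp9 by 2.58 to 5.30. Isg15 (1.83 ± 0.83, adjusted p = 0.34) and Ifit1 (3.41 ± 1.28, adjusted p = 0.24) did not pass. With SHH animal 1 or 2 left out 1 SHH animal remained, and the median log2 differences of the members were 3.16 and 3.11. Without the block 1 member passed, where 55 of 11881 genes were called in the same direction and 3 in the other. The count was 31 without the expression filter, where 788 of 18348 genes were called in the same direction and 217 in the other.

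In T-cell-like against macrophage/microglia-like cells of the same animals, 3 members were higher and 17 lower of 38, against 14% and 17.6% of 8983 genes. Isg20, which lymphocytes are known to express, was higher, at 304, 100, 133 and 192 CPM in MYC and 171 and 199 in SHH T-cell-like cells, with 184, 3.55, 52.8 and 146 and 13.8 and 17.9 in macrophages (log2 difference 1.70 ± 0.45 SE, adjusted p = 0.013). Gbp7 (0.95) and Igtp (1.03) were the others. Oasl1 fell most, by 2.44 (adjusted p = 7.7e-05), and 4 of 5 OAS members were among the 17. Without the block 0 were higher and 2 lower, where 517 of 6497 genes were called higher and 822 lower. Without MYC animal 3 the counts were 2 and 11, where 822 of 8012 genes were called higher and 1188 lower.

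Upstream genes of the pathway moved less than the members. Of 5 receptor genes tested in tumour-candidate cells, only Il10rb, the chain shared by interferon lambda and interleukin 10 receptors, was higher in MYC (log2 fold change 2.88 ± 0.40 SE, adjusted p = 0.017); Ifnar1 was at -0.10 ± 0.34, Ifnar2 at 1.13 ± 0.64, Ifngr1 at 1.04 ± 0.43 and Ifngr2 at 0.25 ± 0.48. All 5 were lower in tumour than in macrophage cells in both subgroups. Of 12 signalling genes Irf1, a transcription factor, rose (2.99, adjusted p = 0.037). Of 5 interferon gamma targets tested Iigp1 rose (7.21, adjusted p = 0.010), while Cxcl10 (7.20, adjusted p = 0.063) and Cd274 (4.89, adjusted p = 0.074) did not pass. Interferon transcripts themselves were rare: Ifnb1 had 47 UMIs, 39 in MYC replicate 5 and 8 in SHH replicate 1, and Ifng had 270 UMIs over all 7 libraries, 172 of them in T-cell-like cells. The files list none of the other 8 ligand genes.

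Within a tumour the 2 subgroups also differed in how members were spread over single cells. Each cell was thinned to 1000 UMIs so that depth could not set the count, which left out 1 cell of MYC replicate 4 and 31 and 59 of the SHH libraries. A MYC tumour-candidate cell then held a mean of 11.5, 5.76, 5.38, 8.56 and 17.5 member UMIs in replicates 1 to 5, and 0.588%, 15.5%, 21.8%, 8.89% and 0.243% of cells held none. An SHH cell held 0.925 and 0.588, and 69.5% and 78.7% held none. The tenth of cells with the most member UMIs took 23.0% to 41.5% of all member UMIs in the MYC libraries and 75.4% and 80.7% in the SHH libraries. The variance beyond counting, divided by the squared mean, was 0.326 to 1.41 in MYC and 8.89 and 11.6 in SHH tumour cells, but 0.956 and 1.09 in SHH macrophages.

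**Figure D4:**
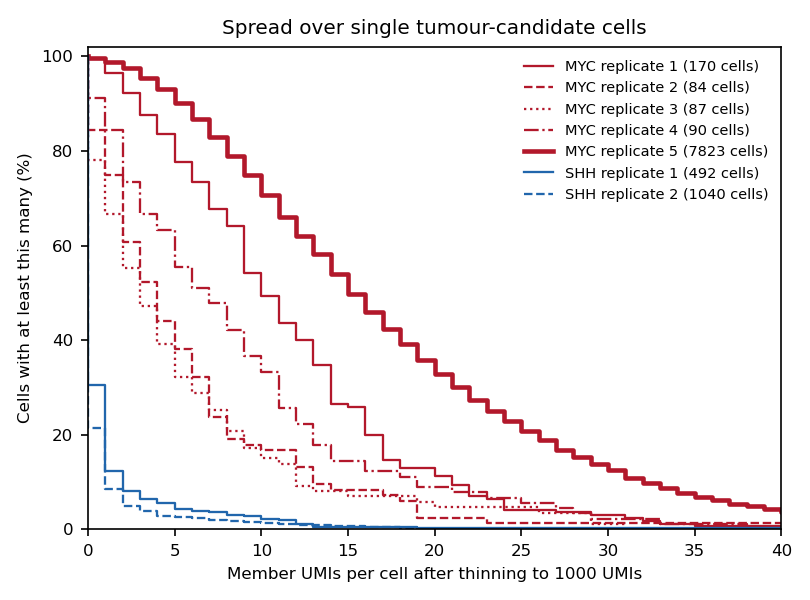
Share of tumour-candidate cells (%) holding at least a given number of member UMIs after thinning to 1000 UMIs, 1 line per library. In the SHH lines 69.5% and 78.7% of cells hold none, so they start low and run along the axis, and the line of MYC replicate 5 lies highest.

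At single member level the same held for Ifi27l2a, found after thinning in 87.7%, 69.1%, 48.3%, 73.3% and 96.8% of MYC and in 18.3% and 11.1% of SHH tumour-candidate cells. Before thinning the shares were 97.7%, 79.8%, 82.8%, 76.9% and 99.9%, and 27.3% and 19.0%. Median depths were 3598 to 12200 UMIs in MYC and 2821 and 3674 in SHH cells. In SHH macrophage/microglia-like cells 45.8% and 44.6% held an Ifi27l2a UMI at the same depth of 1000.

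A few SHH tumour-candidate cells carried much of the signal. Cells with at least 0.5% of their UMIs and at least 5 UMIs from the members, a rule set after the values were seen, numbered 21 of 523 (4.02%) in SHH replicate 1 and 25 of 1099 (2.28%) in SHH replicate 2; another 26 and 41 cells lay between 0.2% and 0.5%. They held 50.8% and 48.1% of the member UMIs. Their member level, 10690 and 12760 CPM, was in the range of whole MYC tumours, and the remaining SHH cells were at 388.5 and 276.5. The same rule took 82.9%, 39.3%, 32.2%, 60.4% and 94.1% of cells in the MYC libraries. These levels follow from the rule and are a description. Other genes, which the rule did not use, were read in the same cells: the SHH tumour genes summed to 3259 and 8313 CPM, against 3752 and 4860 in the remaining cells. In the high cells this sum was mostly Fabp7, with 153 of 182 and 644 of 680 UMIs. In the remaining cells Fabp7 had 3229 of 5591 and 14136 of 19794. Fabp7 was at 2740 and 7873 CPM in the high cells against 2167 and 3471, so the sum says little about the other listed genes. Mycn was lower in the high cells of both libraries, at 17.9 and 110 against 160 and 238, on 1 and 9 UMIs. Macrophage markers were at 322 and 73.4 against 352 and 73.9, pan-haematopoietic markers at 179 and 122 against 229 and 41.5, and T cell markers at 0 and 97.8 against 12.8 and 4.67. Mural markers were at 71.6 and 0 against 2.01 and 4.91, and endothelial markers at 0 and 36.7 against 10.1 and 8.59. In SHH replicate 2 the high cells were thus above the rest in pan-haematopoietic, T cell and endothelial markers, on 10, 8 and 3 UMIs, and in SHH replicate 1 in mural markers, on 4 UMIs. The astrocyte marker list was at 788 and 220 against 154 and 363, so it was higher in the high cells of SHH replicate 1 and lower in those of SHH replicate 2. Gfap alone, with 44 and 7 UMIs, was at 788 and 85.6 against 13.4 and 15.0. Cycling genes were at 0 and 599 against 633 and 521.5. The part of these genes in the result was not tested.

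Single cells also showed how far members varied together. Among MYC tumour-candidate cells thinned to 1000 UMIs, the median Pearson correlation over pairs of members found in 10% or more of cells was 0.0859 to 0.181 across the 5 libraries. Isg15 with Ifit1 or Ifit3 was the closest pair in each of these libraries, from 0.264 in MYC replicate 4 to 0.818 in MYC replicate 3 (87 cells). In MYC replicate 5, with 7823 tumour-candidate cells, the non-members most like the summed members among 1239 genes were Ly6a (r = 0.367), Ifitm3 (0.343), Cxcl10 (0.301), Plac8 (0.298) and B2m (0.288), followed by H2-K1, Lgals9, Iigp1, Zbp1 and Psme1 (0.193 to 0.218). All values share 1 library and its low counts per cell. B2m and H2-K1 encode the chains of MHC class I, which displays peptides to T cells.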

How the data were processed

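Viable (7-AAD-negative) cells from 7 tumour samples were profiled by 10x Chromium 3' sequencing. The authors deposited raw UMI counts per gene and barcode, made with Cell Ranger 2.0.2 on mm10, per the submitters' processing notes; the files list genes seen in 3 or more barcodes, and an unlisted gene was set to 0. The members and marker and pathway lists were chosen with earlier results of these data known.

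Barcodes needed 500 UMIs, 200 genes and at most 20% mitochondrial UMIs. A class needed 3 marker UMIs over 2 markers and 3 times every other list; tumour-candidate cells had no Ptprc and under 0.2% immune UMIs. Doublets were left out by the marker margin alone, with Scrublet (scanpy 1.11.5) as an alternative. Class names were rebuilt here and can differ from the study's. Counts were summed per animal and class (20 or more cells; 496121 to 62775160 UMIs for tumour-candidate, 281384 to 28449779 for macrophage/microglia-like and 119522 to 3726567 for T-cell-like sums) and tested with edgeR 4.0.16 (TMM, filterByExpr, Benjamini-Hochberg) in R 4.3.3, checked on simulated counts; DESeq2 1.42.0 was an alternative. Contrasts between classes kept the animal as block, since both classes come from 1 tumour. CPM is UMIs per 1000000 UMIs of the class sum. Labels name separate animals only through titles. Members described with all values were the most abundant and the most changed of each role, plus up to 8 called in the difference of contrasts. Intervals cover counting error only. Gene positions are from RefSeq promoter windows of GRCm38.p6, which mm10 names, matched by symbol. A gene of the pathway lists is not reported here.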

Additional observations from a re-analysis of the deposited data

Results flagged for a closer look

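Among the MYC animals, Parp12 in tumour-candidate cells stood apart in animal 1, at 43.3 CPM, from the other three. This was 1 of 41 groups of 4 values examined, where chance alone gives about 1 in 20.

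The contrast of tumour-candidate with macrophage/microglia-like cells differed between MYC and SHH animals by a test of the difference (edgeR) for 13 members, as log2 differences of 6.25 for Lgals3bp, 5.61 for Ifi47, 5.41 for Bst2, 5.30 for Parp14, 4.91 for Xaf1, 4.89 for Oasl2, 4.74 for Ifit3, 4.72 for Irf7, 4.28 for Oas1a, 4.12 for Ifi35, 3.38 for Parp9, 2.73 for Ifi27l2a and 2.58 for Rtp4. In SHH tumour-candidate cells Ifi47 and Parp14 rested on 2 UMIs each.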

How the results depend on the processing

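Counts of members that passed were recomputed under each alternative. With one animal left out they ranged from 0 to 31 for tumour-candidate cells of MYC against SHH, 0 to 2 for macrophage/microglia-like cells, 0 to 0 for T-cell-like cells, 5 to 21 for tumour-candidate against macrophage cells, 13 to 20 for T-cell-like against macrophage cells, 0 to 15 for the difference of contrasts, 0 to 13 for the contrast in MYC and 15 to 37 in SHH animals. Without the animal block the class contrasts gave 2 (tumour against macrophage), 2 (T against macrophage), 1 (difference) and 1 (MYC). Of all genes, 808 of 8872, 517 of 6497, 55 of 11881 and 309 of 11881 were then called higher, and 1184, 822, 3 and 1054 lower. DESeq2 gave 5 in macrophages (233 of 7668 genes higher, 127 lower). Sums of 50 or more cells, an alternative added after seeing the data, gave 2 (37 of 7829 higher, 35 lower). Without the expression filter 31 members passed in the difference (788 of 18348 genes higher, 217 lower) and 19 in the MYC contrast (1548 higher, 1826 lower). In that contrast 14 passed with Scrublet barcodes removed (2158 of 11856 genes higher, 1635 lower). It was 17 when immune cells with tumour UMIs were left out (2509 of 11957 higher, 1585 lower), which was also added later. The spread in SHH replicate 2 was 14.0 after thinning to 2000 UMIs and 13.9 without the highest member, against 11.6. No member that passed a comparison changed sign in it under these alternatives. Members that had not passed did: positive log2 fold changes in macrophages numbered 35 to 38 of 38 with one animal left out, against 37, and Lgals3bp was among those that turned. The log2 differences of the summed level ranged with one animal left out from 3.68 to 4.23 in tumour, 1.04 to 1.93 in macrophage and 0.64 to 1.38 in T-cell-like cells. No paired analysis was possible because replicate numbers of MYC and SHH follow accession order only. The 2 SHH animals limit every comparison of subgroups, and with the few member UMIs in their tumour cells (1176 and 2170) low members could not be told from absent ones.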
